A study of Mus musculus with 3 samples.

Results

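The D cyclins, their partner kinases and the inhibitors of those kinases were followed in a culture that leads stromal cells of the adult mouse testis towards the Leydig cell, the cell that makes testosterone. The set is 10 of the 24698 genes in the merged single-cell count table. It was taken by gene name, though with earlier results of these data known. It holds the D cyclins Ccnd1, Ccnd2 and Ccnd3, the kinases Cdk4 and Cdk6, the Cip/Kip inhibitors Cdkn1a, Cdkn1b and Cdkn1c, and the INK4 inhibitors Cdkn2a and Cdkn2b. All 10 had counts on each of the 3 days measured. On GRCm38, Ccnd1 lies on chromosome 7 from 144929931 to 144939925, Ccnd2 on chromosome 6 from 127125162 to 127152193, Cdkn1a on chromosome 17 from 29090976 to 29100727, Cdkn2a on chromosome 4 from 89274471 to 89294653 and Cdkn2b on the same chromosome from 89306299 to 89311039. No member overlaps another gene on its own strand, and all but Cdkn1b, Cdkn2a and Cdkn2b overlap one on the other strand, so if reads were counted without strand these counts could hold reads of the partner.

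A D cyclin binds Cdk4 or Cdk6, and the pair phosphorylates the retinoblastoma protein, which frees E2F factors to switch on the genes of DNA replication. INK4 proteins bind Cdk4 and Cdk6 alone, whereas Cip/Kip proteins bind cyclin-CDK complexes more widely and chiefly block Cdk2. D cyclins answer to growth factors such as the PDGF and FGF given here, and Leydig cells of the adult testis seldom divide.

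Sca1+/cKit- cells were sorted from the testes of C57BL/6 males aged 8 to 12 weeks and plated on Matrigel at 100000 cells per well. All of the culture recovered for 18 hours in 10% FBS and then expanded for 3 days with PdgfAA, PdgfBB and Fgf2 at 10 ng/ml each and the hedgehog agonist SAG at 0.5 uM. Differentiation medium kept these 4 agents and added 5 mM LiCl2, which activates Wnt signalling, and 10 uM DAPT, which blocks Notch cleavage. By the study's account, day 4 cells had been in expansion medium only. Day 7 cells had spent 3 days and day 14 cells 10 days in differentiation medium. Cells of day 4, day 7 and day 14 were each captured as 1 Drop-seq library, in which every RNA molecule carries a unique molecular identifier (UMI), and the methods place all 3 in 1 sequencing batch. With 1 library a day there was no replicate, so no test was made, and every interval below covers counting error only. Differences between days also hold any difference between libraries, and those against day 4 also hold the change of medium.

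The libraries held 2980, 2171 and 973 cells on days 4, 7 and 14, with 12677110, 11627440 and 5324400 UMIs and medians of 2886.5, 3285 and 3272 UMIs per cell. Leydig markers summed to 232, 451 and 7576 UMIs per 1000000 (CPM), and myofibroblast markers, Acta2 (smooth muscle actin) among them, to 4428, 4046 and 132 CPM. Markers of macrophages summed to 9.86, 27.0 and 218 CPM, with C1qa at 0 on day 4 and C1qa and Adgre1 at 0 on day 7. On day 14 a single cell held 1017 of the 1162 macrophage marker UMIs. Endothelial markers stood at 81.6, 114 and 22.5 CPM, of which Cdh5 alone supplied 77.7, 111 and 22.3. Vwf and Tie1 were at 0 on day 7, and Pecam1, Tie1 and Kdr on day 14. Sertoli cell markers stood at 30.8, 34.7 and 15.0 CPM, with Amh at 0 throughout. Sox9 supplied 27.4, 31.7 and 13.0 CPM of them. Germ cell markers stood at 87.7, 13.5 and 28.0 CPM. No barcode was shared between libraries, but within them 43.8%, 47.3% and 51.8% of cells shared the first 11 of 12 barcode bases with another cell. These cells were shallower (on day 4 a median of 1665 UMIs against 5039 in the others), and joining them left 4042 barcodes in place of 6124. CPM per day does not depend on this. The splits of cells below were also run with such barcodes joined, and of 60 ratios of members 57 kept their interval on the same side of 1 or across it. The 3 others are given with their values.

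Ccnd2 had the highest count of the set on each day. UMIs numbered 6494, 11026 and 3044 in the libraries of day 4, day 7 and day 14, or 512 (exact Poisson 95% interval 499.9–525), 948 (931–966) and 572 (552–592) CPM. Day 7 was thus the highest library, 1.85 times day 4 (1.80–1.91), and day 14 stood 1.12 times above day 4 (1.07–1.16). A UMI of Ccnd2 was seen in 64.1%, 80.1% and 72.5% of cells, and in 46.3%, 66.5% and 51.0% after each cell was thinned to 1500 UMIs, which left out 753, 429 and 179 shallower cells.

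Ccnd1, the D cyclin most closely tied to growth factor input, had 208 CPM on day 4 (200.3–216), 307 on day 7 (297–317) and 75.7 on day 14 (68.5–83.5). Day 14 was the lowest library, 4.06 times under day 7 (3.66–4.51) and 2.75 times under day 4 (2.48–3.06). Cells with a Ccnd1 UMI, thinned, made up 23.6%, 32.0% and 9.95% of the 3 libraries.

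Ccnd3, which is the D cyclin often kept by cells that have left the cycle, had its highest level on day 14. Its levels were 69.5 CPM on day 4 (65.0–74.2), 93.5 on day 7 (88.0–99.2) and 111 on day 14 (102–121), so that day 14 lay 1.60 times above day 4 (1.44–1.78). Between days 7 and 14 the direction depended on depth, since the log2 ratio was 0.25 with all UMIs and -0.07 with thinned cells.

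The 3 genes together held 790 CPM on day 4, 1349 on day 7 and 759 on day 14. UMIs were counted at the 3′ end of each molecule, so counts were compared within the family without division by gene length. Ccnd1 made up 26.4% of D cyclin UMIs on day 4 (exact Clopper-Pearson 95% interval 25.5–27.2%), 22.8% on day 7 (22.1–23.4%) and 9.98% on day 14. Ccnd2 supplied 64.8%, 70.3% and 75.4%, and Ccnd3 8.80%, 6.93% and 14.7%. The summed D cyclin level of day 14 was thus near that of day 4, with less Ccnd1 and more Ccnd3 in it.

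**Figure D1:**
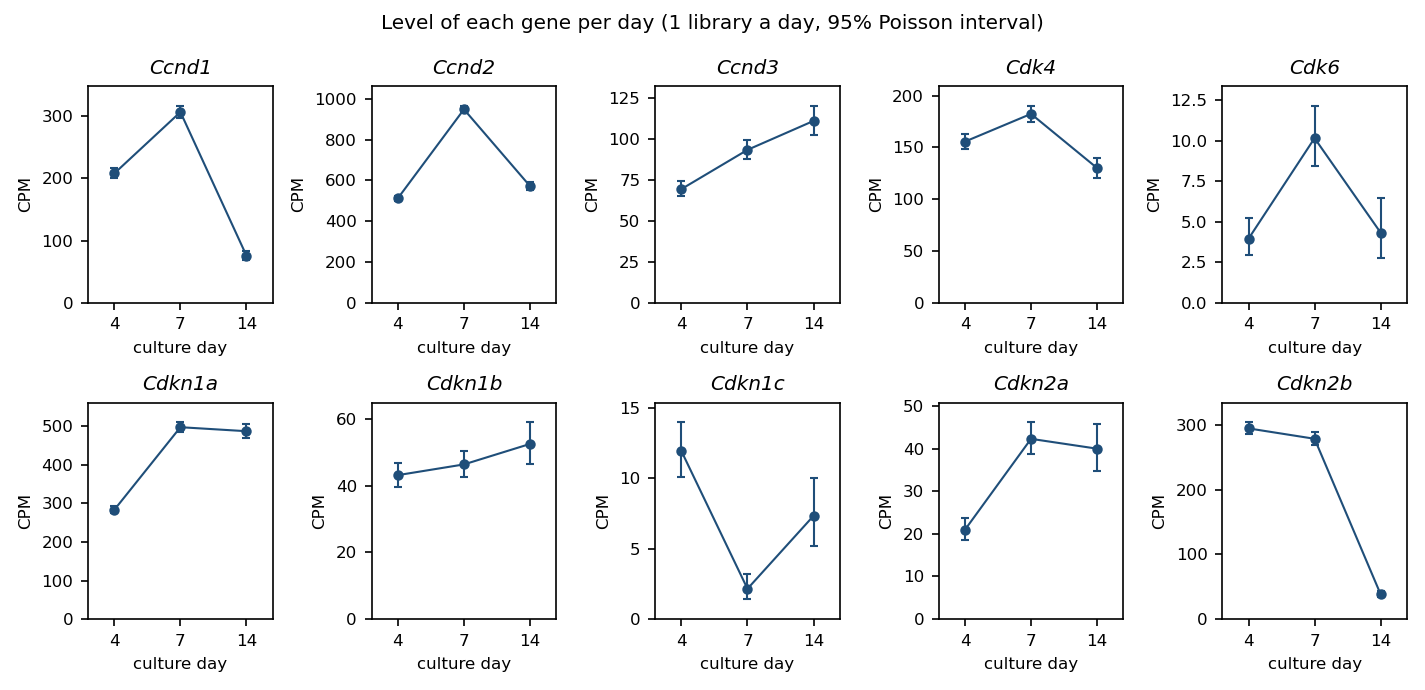
CPM (UMIs per 1000000 UMIs of the library, vertical axes from 0, each gene on its own scale) of the 10 genes on culture days 4, 7 and 14; points are single libraries and bars are exact Poisson 95% intervals. Ccnd1 and Cdkn2b are lowest on day 14 (75.7 and 38.5 CPM), Cdkn1a and Cdkn2a are higher on days 7 and 14 than on day 4, and Cdk6 and Cdkn1c lie near 10 CPM or below.

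Among the kinases of the set, Cdk4 had by far the most UMIs on each day. It had 156 CPM on day 4 (149–163), 182 on day 7 (175–190) and 130 on day 14 (121–140). Its widest ratio between days was 1.40. Cdk6 had 50, 118 and 23 UMIs, or 3.94 (2.93–5.20), 10.1 (8.40–12.2) and 4.32 (2.74–6.48) CPM. Day 7 was 2.57 times day 4 (1.83–3.66) and 2.35 times day 14 (1.49–3.85). Cdk6 made up 2.47% of UMIs of the kinase pair on day 4 and 5.27% on day 7, so the UMIs of the pair were almost wholly those of Cdk4. Protein was not measured.

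Cdkn1a encodes p21, which p53 switches on after DNA damage and other stress and which also rises in cells that leave the cycle. Its level was 284 CPM on day 4 (274–293), 498 on day 7 (485–511) and 488 on day 14 (469–507). Days 7 and 14 were both above day 4, by 1.76 (1.68–1.83) and 1.72 (1.63–1.81) times. Their own difference, with a ratio of 0.979 (0.935–1.03), did not exceed the counting error, and its log2 value was -0.03 by total UMIs and 0.09 after centring on the median gene over 50 CPM.

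Cdkn1b encodes p27, an inhibitor governed largely by protein breakdown. It varied little, with 43.2 CPM on day 4 (39.7–47.0), 46.4 on day 7 (42.6–50.5) and 52.6 on day 14 (46.6–59.1). Cdkn1c, the imprinted gene of p57, had 151, 25 and 39 UMIs, or 11.9 (10.1–14.0), 2.15 (1.39–3.17) and 7.32 (5.21–10.0) CPM. Day 7 was the lowest library, 5.54 times under day 4 (3.61–8.83), with Cdkn1c UMIs in 0.921% of cells. A single cell held 13 of the 39 UMIs of day 14 and another 17 of the 151 of day 4.

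The INK4 genes Cdkn2a and Cdkn2b lie 11645 bases apart on chromosome 4, and between days 4 and 14 they differed in direction, Cdkn2a higher and Cdkn2b lower on day 14. Cdkn2b encodes p15, an inhibitor that TGF-beta induces in many cells. The libraries held 3737, 3241 and 205 UMIs of it in day order, or 295 (285–304), 279 (269–288) and 38.5 (33.4–44.2) CPM. Day 14 was 7.24 times under day 7 (6.28–8.38) and 7.66 times under day 4 (6.65–8.86), the widest ratio between days in the set. Thinned cells with a Cdkn2b UMI were 30.3%, 28.5% and 5.42% of the libraries.

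Cdkn2a encodes p16Ink4a, an INK4 protein, and from another first exon p19Arf, which stabilises p53. It had 266, 492 and 213 UMIs, or 21.0 (18.5–23.7), 42.3 (38.7–46.2) and 40.0 (34.8–45.7) CPM. Days 7 and 14 were 2.02 (1.73–2.35) and 1.91 (1.59–2.29) times day 4, and did not differ from each other beyond counting error. Cdkn2b supplied 93.4% of the UMIs of this pair on day 4, 86.8% on day 7 and 49.0% on day 14, so the counts of the neighbours were close by day 14 (213 and 205 UMIs).

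Both transcripts of Cdkn2a end in the same exons, so the 3′ UMIs cannot tell p16Ink4a from p19Arf. The starts of the 3 transcripts are nevertheless distinct in sequence, and the 250 bases before each are shown because these neighbours differed in direction between days 4 and 14 (RefSeq, GRCm38.p6, all on the minus strand, 5′ to 3′, GC box GGGCGG and E2F sites TTTCCCGC, TTTGGCGC, TTTCGCGC or TTTGCCGC in capitals where found on either strand).
Cdkn2a, upstream start, chr4:89294620-89294869: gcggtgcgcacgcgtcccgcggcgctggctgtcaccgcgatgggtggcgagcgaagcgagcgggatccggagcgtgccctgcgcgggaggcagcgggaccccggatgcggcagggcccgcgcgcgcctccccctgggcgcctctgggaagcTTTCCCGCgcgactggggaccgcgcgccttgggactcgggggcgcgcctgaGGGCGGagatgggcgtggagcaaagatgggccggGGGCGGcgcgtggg
Cdkn2a, downstream start, chr4:89282193-89282442: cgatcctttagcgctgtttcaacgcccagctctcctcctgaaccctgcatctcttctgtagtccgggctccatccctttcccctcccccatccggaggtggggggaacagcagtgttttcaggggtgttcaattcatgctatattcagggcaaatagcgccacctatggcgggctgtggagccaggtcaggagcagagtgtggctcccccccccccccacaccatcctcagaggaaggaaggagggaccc
Cdkn2b, chr4:89311033-89311282: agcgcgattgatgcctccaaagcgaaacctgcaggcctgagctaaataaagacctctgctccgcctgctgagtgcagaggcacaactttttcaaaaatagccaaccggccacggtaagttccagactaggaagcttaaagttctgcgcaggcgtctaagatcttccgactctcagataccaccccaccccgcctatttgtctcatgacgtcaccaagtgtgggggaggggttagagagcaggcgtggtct
The upstream Cdkn2a window, before the first exon of p19Arf, had a GC content of 78.4%, an E2F site 99 bases from the start and GC boxes 48 and 14 bases from it. The downstream Cdkn2a window (60.0% GC) and the Cdkn2b window (53.6% GC) held neither motif. Of 32851 promoter windows of the same length, 32.7% held the GC box and 1.86% an E2F site of these letters. Windows were matched for 7 of the 10 genes. Among the others, the GC box stood in the windows of Cdkn1b, Cdk4 and Ccnd3 and in that of the downstream Cdkn1a start, and the E2F letters in none. A match is a description of the letters and not of factor binding.

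Read by order within a library, day 4 had Ccnd2 first, then Cdkn2b and Cdkn1a, whose intervals overlapped, then Ccnd1, Cdk4 and Ccnd3. On day 7 the order was Ccnd2, Cdkn1a, Ccnd1, Cdkn2b and Cdk4, and on day 14 it was Ccnd2, Cdkn1a, Cdk4, Ccnd3 and Ccnd1. Further down the day 14 order Cdkn2a (40.0 CPM) and Cdkn2b (38.5 CPM) overlapped, and Cdkn1b (52.6 CPM) lay above both. Counts of all 5 inhibitors per D cyclin UMI were 0.829 on day 4 (0.805–0.853), 0.643 on day 7 (0.627–0.660) and 0.825 on day 14 (0.788–0.864). Day 7 thus had the lowest ratio, while days 4 and 14 overlapped. The inhibitors were not lower on day 7, with 339, 547 and 547 CPM of Cip/Kip UMIs and 316, 321 and 78.5 CPM of INK4 UMIs in day order, and the D cyclins were highest there.

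**Figure D2:**
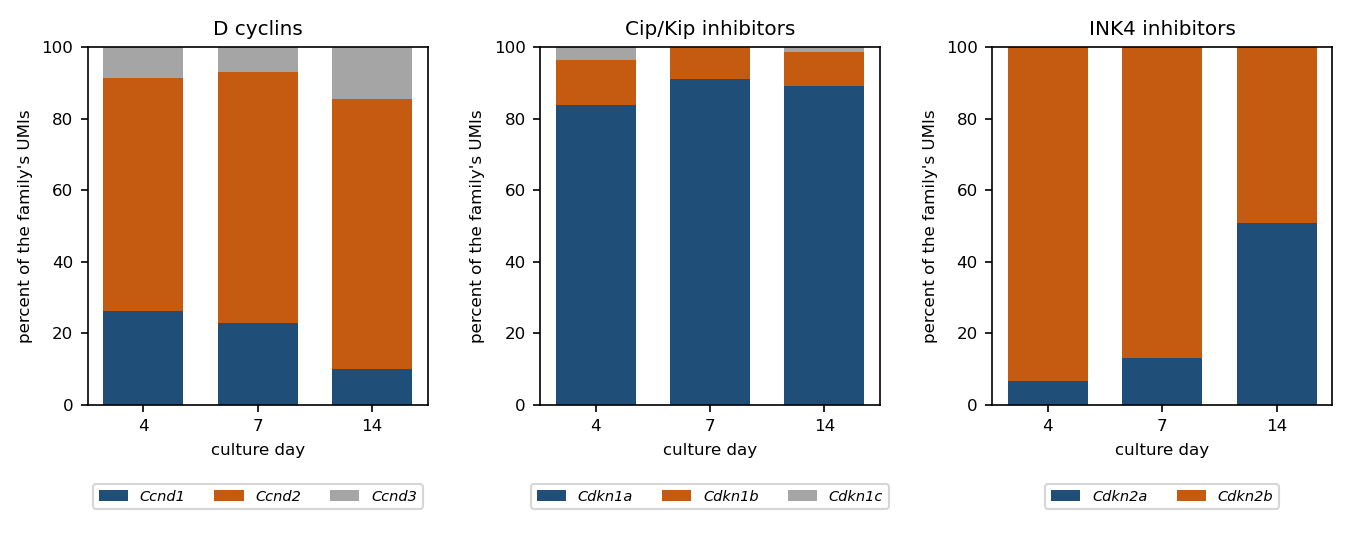
Percent of each family's UMIs (vertical axis, 0 to 100) that each gene supplied on culture days 4, 7 and 14 (1 library a day). Ccnd1 goes from 26.4% to 9.98% of D cyclin UMIs between days 4 and 14, and Cdkn2b from 93.4% to 49.0% of the UMIs of the INK4 pair, while Cdkn1a supplies over 80% of Cip/Kip UMIs on every day.

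Against all genes, the members differed as follows, counting a gene as past 2-fold where its log2 ratio with a pseudocount of 1 CPM reached 1 or -1 and it had at least 10 CPM in either group. From day 4 to day 7, 2 of 10 members were past 2-fold, Cdk6 higher and Cdkn1c lower, where 4.22% of 8418 genes were. Cdkn2a, at a log2 ratio of 0.98 with the pseudocount, was just short of the limit. The median of the members was 0.49, and that of all genes was 0.07. The count of 2 became 4 in cells without Mki67 or Top2a UMIs, where Cdkn1a and Cdkn2a joined, and 1, Cdkn1c alone, with a pseudocount of 5 CPM.

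From day 7 to day 14, 3 of 9 measured members were past 2-fold, all lower, namely Ccnd1, Cdk6 and Cdkn2b. The background was wide, since 24.0% of 8813 genes were past 2-fold in this comparison and 14.1% were lower, so 3 of 9 members is not far from the background. Cdkn2b, at a log2 ratio of -2.82, was lower than 98.3% of measured genes, and Ccnd1, at -2.01, lower than 95.5%. The median gene over 50 CPM lay at -0.12 in this comparison and at -0.15 between days 4 and 14. Cdkn1c was under 10 CPM in both libraries and was not counted. Day 14 against day 4 had 2 of 9 members past 2-fold, Ccnd1 and Cdkn2b, both lower, with 28.8% of 8773 genes past it and 15.7% lower. Days 4, 7 and 14 each serve in 2 of these comparisons, which are therefore not independent.

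**Figure D3:**
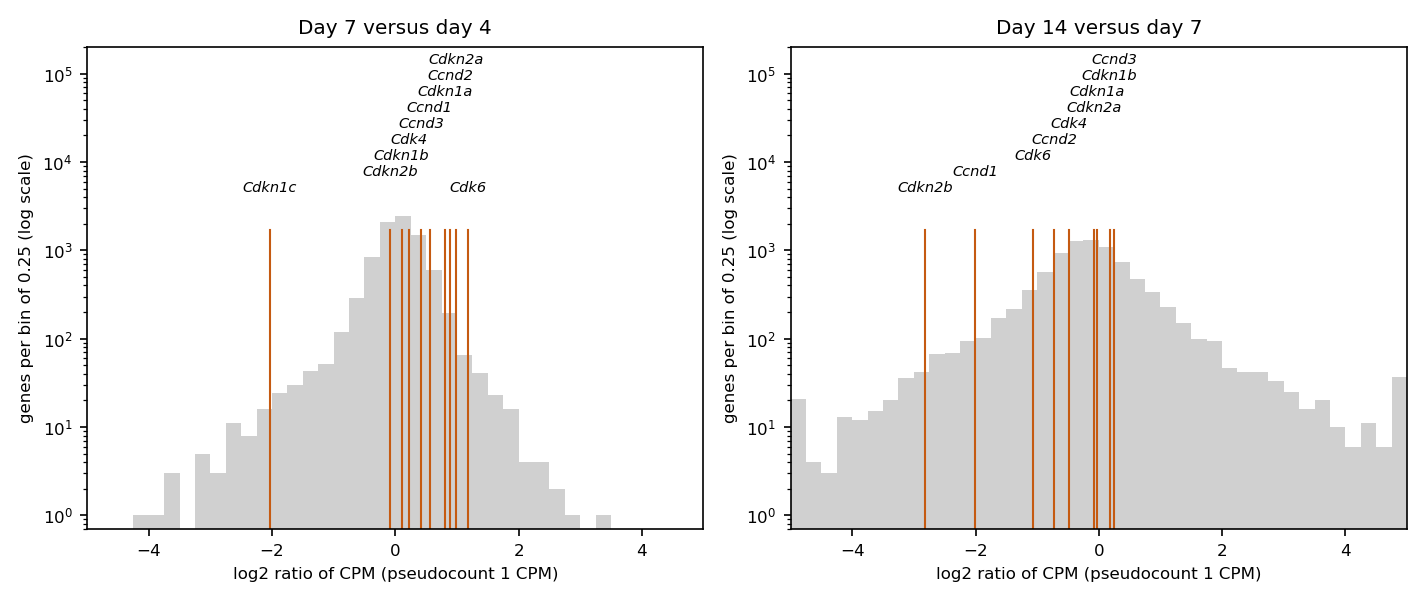
Number of measured genes (grey bars, log axis, bins of 0.25, the end bins holding all values beyond 5) by log2 ratio of CPM with a pseudocount of 1 CPM, for day 7 against day 4 and day 14 against day 7, with the measured members as orange lines. From day 4 to day 7 most members lie right of the centre, with Cdkn1c at -2.04, and from day 7 to day 14 Cdkn2b (-2.82) and Ccnd1 (-2.01) lie in the left tail.

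Dividing cells were marked by a UMI of Mki67, a protein of proliferating nuclei, or of Top2a, the topoisomerase of S to M phase. They were 542 cells or 18.2% on day 4 (16.8–19.6%), 439 or 20.2% on day 7 (18.5–22.0%) and 26 or 2.67% on day 14 (1.75–3.89%). Thinned to 1500 UMIs, the shares were 14.7%, 15.8% and 1.26%, and with joined barcodes they were 21.4%, 23.6% and 3.33%. As a gauge of free RNA, 2.10% of the day 14 cells with 10 or more UMIs of the steroid enzymes had such a UMI at a median depth of 5625 UMIs, and 0.643% when thinned. These cells are part of day 14 and held 7 of its 26 marked cells, and the intervals of the gauge and of the whole day 14 share overlapped. A UMI of Ccna2, Ccnb1, Ccnb2 or Tk1, other genes of dividing cells, was present in 15 of the 26 marked cells and in 27 of the 947 others (2.85%), and Ccnb2 had 250 CPM in marked and 2.96 in other cells of day 14. Marked cells were deeper than the rest, with medians of 4417 against 2677.5 UMIs on day 4, 5222 against 2895.5 on day 7 and 7537 against 3186 on day 14.

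None of the 9 measured members differed past 2-fold between cells with and without Mki67 or Top2a UMIs on day 4, where 5.48% of 8290 genes did, and none of 9 did on day 7, where 5.82% of 8553 did. Cdk6 on day 4 and Cdkn1c on day 7 were under 10 CPM in both groups. The same split moved other cell cycle genes widely. All 16 measured genes of a DNA replication list were past 2-fold higher on day 4 and all 17 on day 7, with median log2 ratios of 1.70 and 2.06. Of the later cyclins and CDKs 9 of 14 were past 2-fold higher on day 4 and 11 of 14 on day 7, Ccna2, the cyclin of S and G2 phase, at 138 against 3.57 CPM on day 4. These lists share the cycle with the markers of the split and are a scale for it, not a result.

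Ccnd2 was lower in marked cells on each day. It had 387 CPM in marked and 554 in other cells on day 4, 721 and 1029 on day 7, and 413 and 580 on day 14. The ratios were 0.698 (0.656–0.743), 0.701 (0.668–0.734) and 0.712 (0.582–0.862). Among thinned cells of day 7, 51.1% of marked and 69.4% of other cells had a Ccnd2 UMI, and with barcodes joined the ratios of days 4 and 7 were 0.703 and 0.710.

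Cdkn2b was also lower in marked cells, at 240 against 313 CPM on day 4 and 208 against 304 on day 7. These ratios were 0.766 (0.707–0.830) and 0.684 (0.626–0.746). Ccnd1 did not differ beyond counting error, at 197 against 212 CPM on day 4 (0.931, 0.850–1.02) and 308 against 307 on day 7, but with joined barcodes the day 4 interval fell just under 1 (0.914, 0.836–0.999). Cdk6 (ratios of 0.660 and 0.680) and Cdkn1c (0.685 and 0.383) had too few UMIs, and all 4 intervals held 1. The D cyclins of marked cells thus held more Ccnd1 by share, 30.1% against 25.4% on day 4 and 27.2% against 21.5% on day 7, while their summed level was lower.

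Cdk4 and Cdkn1b were higher in marked cells. Cdk4 had 182 against 147 CPM on day 4 (ratio 1.24, 1.12–1.36), and 212 against 172 on day 7 (1.23, 1.12–1.35). Cdkn1b, though an inhibitor, had 56.0 against 39.0 CPM on day 4 (1.43, 1.19–1.72) and 59.6 against 41.8 on day 7 (1.43, 1.19–1.71). With thinned cells the Cdkn1b intervals reached below 1 (0.989–2.21 and 0.837–2.04), as did that of Cdk4 on day 4 (1.14, 0.894–1.45). Ccnd3 had a ratio of 1.03 on day 4 (0.883–1.20) and 1.18 on day 7 (1.03–1.35), which thinned was 1.26 (0.901–1.72).

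Cdkn1a changed sides between days. On day 4 marked cells had 314 and other cells 274 CPM, a ratio of 1.15 (1.06–1.23), and on day 7 they had 332 and 557 CPM, a ratio of 0.597 (0.557–0.639). From day 4 to day 7 the other cells thus moved more than the marked cells. Thinned, marked cells had 312 CPM on day 4 and 399 on day 7 and other cells 269 and 519, with ratios of 1.16 (0.968–1.38) and 0.768 (0.648–0.905). Cdkn2a showed 19.6 against 21.4 CPM on day 4, a ratio of 0.914 (0.676–1.22), and 27.8 against 47.5 CPM on day 7, a ratio of 0.586 (0.459–0.742), though with thinned cells the day 7 interval was 0.306–1.19. With 1 library a day the difference between days in these ratios was not tested. Markers of other cells moved with the split, those of Leydig cells at 201 CPM in marked and 242 in other cells of day 4 and 211 and 536 on day 7, those of macrophages at 4.11 and 11.8 on day 4 and 6.22 and 34.4 on day 7, those of myofibroblasts at 3462 and 4748 on day 4 and 3887 and 4103 on day 7, and those of germ cells at 54.4 and 98.8 on day 4. Their part in the member values was not tested.

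**Figure D4:**
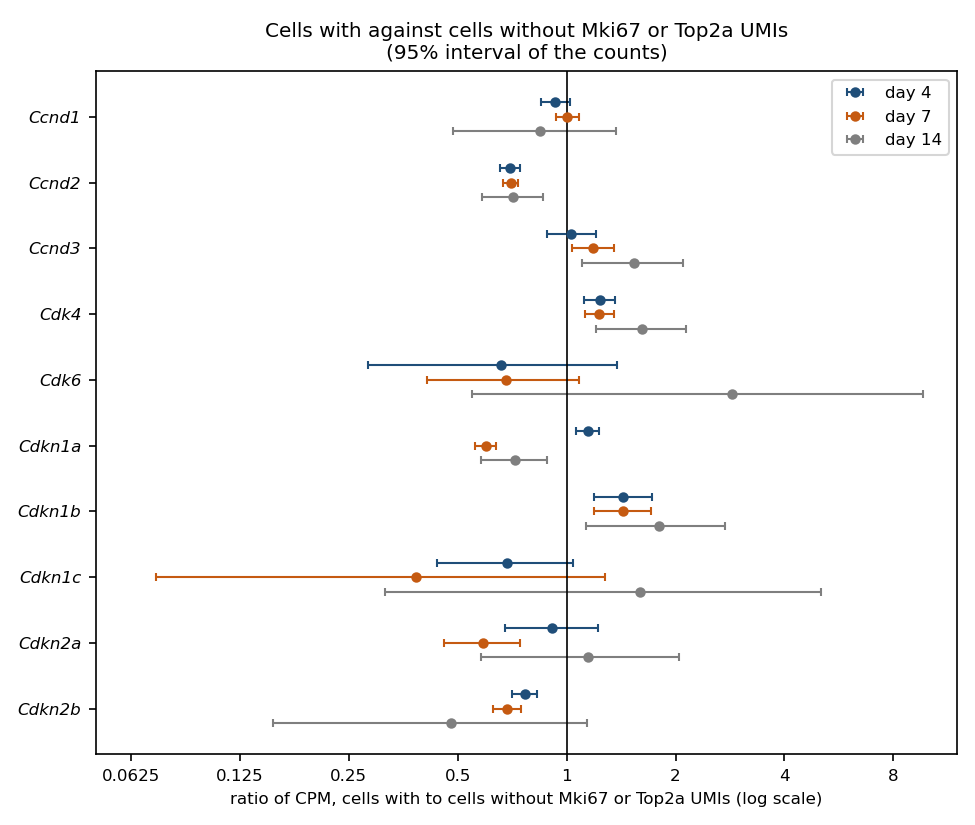
Ratio of CPM between cells with and cells without Mki67 or Top2a UMIs (horizontal log axis, line at 1) for each gene on days 4, 7 and 14, with 95% intervals from the UMI counts. Ccnd2 lies near 0.70 on every day, Cdkn1b and Cdk4 lie above 1, and Cdkn1a lies at 1.15 on day 4 and 0.597 on day 7.

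A list of p53 and its targets, Cdkn1a not among them, was read beside it. Like the other lists, it was chosen with earlier results of these data known. The share of all genes with intervals off 1 is not given here, so the interval counts of this list have no background beside them. Between days 4 and 7, 10 of 17 measured genes had intervals above 1, none below and 7 across it, and 1 was past 2-fold, Gadd45a, a stress gene of growth arrest, at 54.8 and 156 CPM. The list median was 0.41 against 0.07 for all genes, and 14 of 17 log2 ratios lay above 0 where 58.3% of all measured genes did. In marked against other cells of day 4 the median was 0.11 against 0.02 for all genes, with 1 interval of 16 above 1, 4 below and 11 across it. On day 7 it was -0.33 against 0.01, with 2 intervals of 17 above 1, 8 below and 7 across it, and 14 log2 ratios below 0 where 48.4% of all measured genes were. Sesn2, Btg2 and Zmat3 had day 7 ratios of 0.471, 0.536 and 0.641, and Ccng1, a cyclin that p53 induces, 0.768. On the other side, Sesn1 had the highest day 7 ratio of the list (1.59, 1.09–2.32). Trp53 itself was also on that side, at 159 against 120 CPM in marked and other cells of day 7. With day 14 the list and Cdkn1a parted. From day 7 to day 14 the list median was -0.29 against -0.18 for all genes, and Cdkn1a had a ratio of 0.979. Of 17 intervals 6 lay above 1, 8 below and 3 across it. Day 14 against day 4 had 8 above, 4 below and 5 across. In marked against other cells of day 14 all 17 intervals held 1, whereas Cdkn1a had 0.720 (0.580–0.885).

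Cdkn2d, the INK4 gene of p19, had 80.9 CPM in marked and 13.0 in other cells of day 4, a ratio of 6.21 (4.99–7.76). Its list of 12 holds other INK4 inhibitors and, for the most part, genes of CDK inhibitor turnover. Of these 5 were past 2-fold higher on day 4 and 6 on day 7, Cks2, a CDK-binding protein, at 265 against 36.9 CPM on day 4, while Skp1a and Ddb1, ubiquitin ligase subunits, had ratios of 0.916 and 0.952. Of the Rb and E2F family 3 of 10 and 4 of 12 were past 2-fold higher, E2f7 and E2f8, repressors of the E2F programme, foremost. Of the genes that control D cyclins none of 7 was past 2-fold on either day. Over all measured genes 5.48% were past 2-fold on day 4 and 5.82% on day 7, in either direction. The turnover list and the Rb and E2F list also share the cycle with the markers of the split. Their counts, and the Cdkn2d ratio, are thus a scale for it and not a result.

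Counts of all 5 inhibitors per D cyclin UMI were 0.973 in marked cells of day 4 (0.915–1.04) and 0.791 in the others (0.765–0.818). On day 7 the order was the reverse, 0.554 (0.524–0.586) and 0.669 (0.650–0.688).

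The 26 marked cells of day 14 were a thin basis, with 12 of them resting on 1 UMI and 1 cell of 59447 UMIs supplying 22.5% of the group. Another, of 24077 UMIs, had 1017 UMIs of macrophage markers, so these markers summed to 3855 CPM in marked and 28.5 in other cells. Here 2 of 10 members were past 2-fold, Cdk6 higher on 3 UMIs and Cdkn2b lower on 5, with 19.1% of 9022 genes past it. Without the cells of 10 or more macrophage or germ cell UMIs the count was 0, and no Cdk6 UMI was left in marked cells. With all UMIs Cdk4 had a ratio of 1.62 (1.20–2.14), Cdkn1b of 1.80 on 24 UMIs, Ccnd3 of 1.54 and Cdkn1a of 0.720 (0.580–0.885), and Ccnd1, Cdkn1c and Cdkn2a had intervals that held 1. Thinning left 10 marked cells, and the ratios became 0.530 for Cdk4 (0.0133–3.00) and 1.01 for Cdkn1a (0.405–2.10), with no Ccnd3 UMI in marked cells. The directions of Cdk4, Cdkn1a and Ccnd3 thus did not hold at that depth. Ccnd2 stayed below 1, at 0.498, but its interval held 1 (0.135–1.28). Cdkn1b stayed above 1 (7.84, 2.44–19.5), with UMIs in 3 of the 10 cells.

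The differences between days were present without the marked cells. Among the other cells Ccnd1 had 212, 307 and 76.3 CPM on days 4, 7 and 14, Cdkn2b 313, 304 and 39.5, and Cdkn1a 274, 557 and 494. These other cells may still include dividing cells in which no UMI of the 2 genes was caught. Of the barcode starts shared by several cells, 60 of 351 on day 4 and 50 of 269 on day 7 held both marked and other cells.

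Within day 14, cells with 3 or more UMIs of Cyp11a1, Cyp17a1 and Hsd3b1, enzymes that turn cholesterol into androgens, were set against cells with fewer. There were 458 and 515 of them, at median depths of 4915.5 and 2414 UMIs. Of 9 measured members 2 were past 2-fold, both lower in enzyme-positive cells, Ccnd1 and Cdkn1c, with 8.42% of 8341 genes past it and 4.88% lower. Ccnd1 had 124 UMIs and 37.4 CPM (31.1–44.6) in enzyme-positive cells and 279 UMIs and 139 CPM (123–156) in the others, a 3.71-fold difference (2.99–4.62). On the log2 scale this was -1.86, and -1.15 with a limit of 1 enzyme UMI. It was lower than 98.9% of measured genes.

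Graded by enzyme UMIs, Ccnd1 stood at 137 CPM with none, 140 with 1 to 2, 76.2 with 3 to 9 and 27.9 (21.9–35.0) with 10 or more. The last group had 333 cells, and the first, with 312, stood below the day 7 library of 307 CPM. Cdkn1c had 17.2, 6.85, 7.62 and 3.76 CPM in the same order, on 17, 7, 5 and 10 UMIs. Markers of several cell types moved with the split. Those of myofibroblasts had 67.9 CPM in enzyme-positive and 237 in the other cells, and those of interstitial progenitors 445 and 730. Sertoli cell markers had 11.2 and 21.4 CPM, and endothelial markers, on day 14 almost wholly Cdh5, 9.06 and 44.7. Macrophage markers had 320 and 50.7 CPM, but 1 enzyme-positive cell held 1017 of the 1162 macrophage marker UMIs of day 14. Acta2 had 5.27 CPM with 10 or more enzyme UMIs and 222 with none. Their part in the Ccnd1 value was not tested.

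The other members differed less. Ccnd2 had 528 against 643 CPM (ratio 0.822, 0.765–0.884), Ccnd3 108 against 117 and Cdk4 122 against 143, a ratio with an interval below 1 that held 1 with joined barcodes (0.877, 0.750–1.03). Cdkn1a had 513 against 446 CPM (1.15, 1.06–1.25), but its value was lowest with 1 to 2 enzyme UMIs (384 CPM), and a limit of 1 enzyme UMI turned the log2 ratio to -0.08. With thinned cells the intervals of Cdk4, Cdkn1a, Cdkn1c and Cdkn2b in this split all held 1. Cdkn1b had 54.9 against 48.7 CPM, Cdkn2a 39.5 against 40.8, and Cdk6, under 10 CPM in both groups, 3.02 against 6.46. Cdkn2b had 33.5 against 46.7 CPM (0.717, 0.540–0.954), and even the cells with no enzyme UMI had 48.5 CPM (35.8–64.3), far from the 279 CPM of day 7. With 10 or more enzyme UMIs Cdkn2b had 31.2 CPM (24.9–38.7), its lowest class, though this interval overlapped that of cells with none. Both Cdkn2b and Ccnd1 were thus below the day 7 library in every enzyme class and lowest in the class with the most enzyme UMIs. Only for Ccnd1 did the intervals of the first and last classes lie apart.

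**Figure D5:**
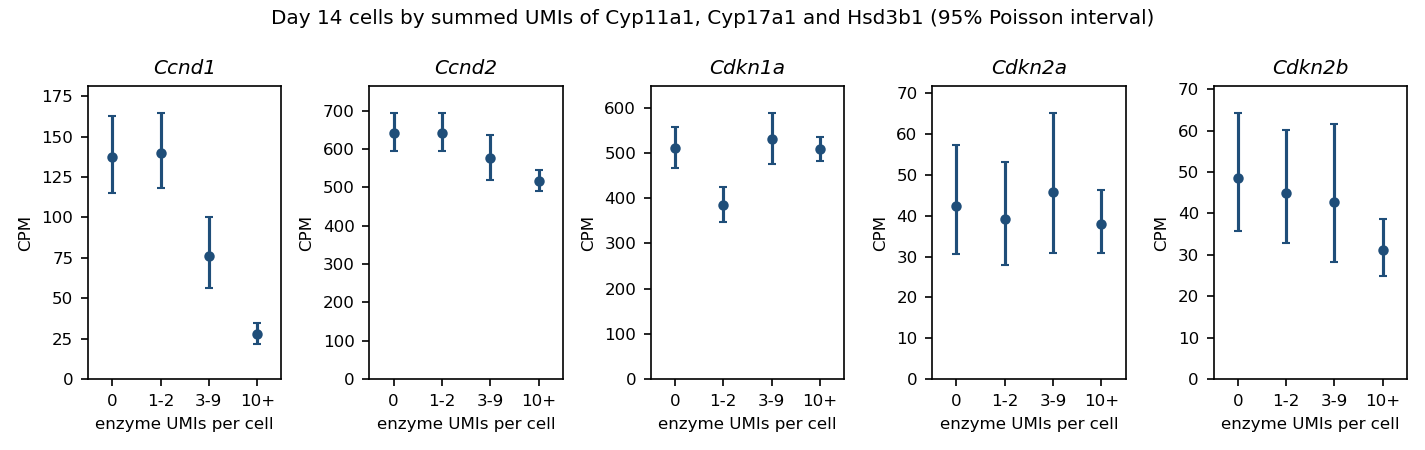
CPM of 5 genes (vertical axes from 0) in day 14 cells grouped by summed UMIs of Cyp11a1, Cyp17a1 and Hsd3b1 per cell (0, 1 to 2, 3 to 9, 10 or more, from 312, 203, 125 and 333 cells of 1 library), with exact Poisson 95% intervals. Ccnd1 goes from 137 to 27.9 CPM, while Cdkn2a stays between 38.0 and 45.7 CPM with overlapping intervals.

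The few cells of day 7 that already held 3 or more enzyme UMIs were looked at after these values were seen. They were 33 barcodes with 18 distinct starts of 11 bases, and 154932 UMIs in all. Ccnd1 had 1 UMI in them, 6.45 CPM (0.163–36.0), against 311 in the other cells of day 7. Cdkn2b had 71.0 CPM (35.4–127) against 282, Ccnd2 329 (245–433) against 957, and Cdkn1a 181 (120–261) against 502. Cdkn2a had none, which at 3 counts allows up to 19.4 CPM and by the exact Poisson interval 23.8, against 42.9 in the others. Cdkn1b was higher, at 96.8 CPM (54.2–160) against 45.8. Cells that share barcode starts may be 1 cell, so the intervals are too narrow.

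On days 4 and 7 cells without Mki67 or Top2a UMIs were divided at 1000 Acta2 UMIs per 1000000. None of 9 measured members was past 2-fold on day 4, with 3.68% of 8262 genes past it, nor on day 7, with 3.62% of 8400. Cdkn2a on day 4 came closest, at 23.8 CPM in Acta2-high and 12.6 in Acta2-low cells (1.88, 1.23–2.99). Cdkn2b was higher in Acta2-high cells on day 4, at 338 against 219 CPM (1.54, 1.39–1.71), and had 303 against 306 CPM on day 7 (0.988, 0.910–1.07). Ccnd1 had 206 against 233 CPM on day 4 (0.887, 0.798–0.986), and 330 against 257 on day 7 (1.28, 1.17–1.40). Cdkn1a was lower in Acta2-high cells on both days (0.890 and 0.831), Cdkn1b on day 7 (0.753, 0.606–0.939) and Cdk4 on day 4 (0.880, 0.776–0.999). Ccnd2 was higher on both (1.28 and 1.08) and Cdk6 on day 7 (1.75, 1.06–3.03), while Ccnd3 (1.03 on both) and Cdkn1c had intervals that held 1, Cdkn1c of day 4 lying above 1 with joined barcodes (1.76, 1.02–3.26). Some of these directions turned with the settings. Cdkn1a on day 4 had a log2 ratio of -0.17, and 0.09 with the division at 3000 Acta2 UMIs per 1000000. Thinned, Cdkn1b on day 7 went from -0.40 to 0.02 and Ccnd1 on day 4 from -0.17 to 0.08, and the intervals of Cdk4 on day 4 and Cdk6 on day 7 held 1.

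Markers of other cells moved with this split too. Germ cell markers had 14.3 CPM in Acta2-high and 420 in Acta2-low cells of day 4, where 3 cells held 10 or more such UMIs, and macrophage markers 9.92 and 86.9 CPM on day 7. Without these cells the counts of members past 2-fold stayed at 0 on both days. Leydig markers were also higher in Acta2-low cells, at 444 against 189 CPM on day 4 and 920 against 357 on day 7. Their part in the member values was not tested.

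Likeness of pattern was measured by Pearson's r over 6 groups, marked and other cells of each day, among 4498 genes, for the 9 members with enough UMIs. For Ccnd1 the most alike were Cfl1 (0.998), the gene of an actin-severing protein, Tnfrsf11b (0.998), that of osteoprotegerin, and Col6a3 (0.997), a collagen chain. For Cdkn2b they were Cltb, Prkab2 and Map2k1 (0.999, 0.999 and 0.998), and for Cdkn1c the matrix gene Ogn (0.992), Gsn and Stat2. The Cdkn1c values rest on few counts, with 3 UMIs in marked cells of day 7 and 3 in those of day 14. For Cdkn1a they were Pmm1, Mtfr1l and Ufc1, at 0.967 to 0.951. The 6 groups share 3 libraries and their depths, so these values describe the groups only.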

How the data were processed

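Drop-seq was run on 1 culture sample a day. For the deposited counts the authors ran Drop-seq tools, with STAR alignment against GRCm38. STAR 2.5.2a, Picard 2.6.0 and SAMtools 1.2 are named in the submitters' processing notes. The values are raw UMI counts. The authors removed cells with under 500 genes or over 10% mitochondrial UMIs. The merged table holds 6124 cells, the number the study states, out of 7000 deposited barcodes, of which 6128 meet these limits as computed here. The merged table was used, and 0 of its entries differed from the counts of each day. Its 495 columns of day 0 cells were not used. The annotation release and any use of strand are not given in the sources used here, so positions come from the GENCODE annotation of GRCm38.

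UMIs were summed over the cells of a group and given as CPM with exact Poisson 95% intervals, and ratios with exact intervals from the same counts. Log2 ratios used a pseudocount of 1 CPM, and a gene counted as past 2-fold if it had at least 10 CPM in either group. Shares have exact Clopper-Pearson 95% intervals. No test was possible with 1 library a day, and cells are not replicates. Thinning drew 1500 UMIs per cell, with seed 1. Doublets were treated by removing, as an alternative, the 6% of cells with the highest Scrublet scores. Clusters were not made. The 10 members and all gene lists were chosen with earlier results of these data known, and all members are reported. List genes were named by the largest and smallest log2 ratios, and in the p53 list Zmat3 and Ccng1 were named besides. Like genes were named by the 3 highest values of r among genes with at least 50 CPM in a group. Joined barcodes and removal of cells with 10 or more macrophage or germ cell UMIs were added after the data had been seen. Computation used Python 3.11.15, numpy 2.4.6, scipy 1.17.1, pandas 2.3.3, scanpy 1.11.5 and matplotlib 3.10.9. Promoter windows came from RefSeq on GRCm38.p6.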

Additional observations from a re-analysis of the deposited data

Results flagged for a closer look

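Cdkn1a lay on opposite sides between days in cells with against cells without Mki67 or Top2a UMIs, with a CPM ratio of 1.145 on day 4, 0.5968 on day 7 and 0.7198 on day 14. Ccnd1 did so in Acta2-high against Acta2-low cells, with a ratio of 0.8865 on day 4 and 1.281 on day 7. With thinned cells the Cdkn1a ratios were 1.16 (0.968–1.38), 0.768 (0.648–0.905) and 1.01 (0.405–2.10) in day order, so the intervals of days 4 and 14 held 1. For Ccnd1 the log2 ratio of day 4 was -0.17 with all UMIs and 0.08 with thinned cells. That of day 7 was 0.36 and, with the limit at 3000 Acta2 UMIs per 1000000, 0.10. Each ratio rests on 1 library, so neither difference between days was tested.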

How the results depend on the processing

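Of 787 values of single genes under alternatives, 688 stayed within the counting interval of the value given, 87 moved beyond it and 12 turned, counting as turned a change of sign in a value that was past 2-fold or whose interval did not hold a ratio of 1. In all 47 values lay on the other side of 0. Thinned, the log2 ratio of Ccnd3 between days 14 and 7 was -0.0713 and that of Cdkn1b between days 14 and 4 was -0.0604. In marked cells of day 14 thinning gave -6.58 for Ccnd3, where no UMI was left, -0.907 for Cdk4 and 0.0180 for Cdkn1a, and -6.38 and -0.943 for Ccnd3 and Cdk4 against cells without DNA replication UMIs. Cdk6 there (1.32) was -2.31 without cells of macrophage or germ cell markers, where marked cells held no Cdk6 UMI. Cdkn1a by enzyme class was -0.0816 with a limit of 1 UMI. In the Acta2 division thinning gave 0.0815 for Ccnd1 on day 4 and 0.0192 for Cdkn1b on day 7, and the limit of 3000 gave 0.0918 for Cdkn1a on day 4. Of 85 counts of members past 2-fold, 74 stayed within 1.5 times and 11 did not. The count of members past 2-fold from day 4 to day 7 (2) was 1 with equal weight per cell, 1 with a pseudocount of 5 CPM, 1 without high doublet scores and 4 in cells without Mki67 or Top2a UMIs. For marked cells of day 14 the count of 2 was 0 with a pseudocount of 5 CPM, 1 without high doublet scores, 5 thinned, 4 thinned and set against cells without DNA replication UMIs, and 0 without cells of macrophage or germ cell markers. For the Acta2 division of day 4 the count of 0 was 1 thinned and 1 with the limit at 3000 per 1000000. The share of marked cells on day 4 (18.19%) was 14.68% thinned, 16.7% without a cell filter, 19.93% with a stricter filter, 11.95% with at least 2 UMIs required and 21.41% with joined barcodes. On day 7 (20.22%) it was 15.84% thinned, 22.38% with the stricter filter, 13.5% with at least 2 UMIs and 23.55% joined, and on day 14 (2.672%) it was 1.259% thinned and 1.439% with at least 2 UMIs. The cause was not tested. The counts for the other comparisons of days, for marked cells of days 4 and 7, for the enzyme groups of day 14 and for the Acta2 division of day 7 kept within 1.5 times under every alternative run.

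No paired analysis was possible because each day has 1 library and the labels give no replicate numbers. Genes under about 10 CPM, here Cdk6 and Cdkn1c, and the 26 marked cells of day 14 are limited by depth.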
